A study of Mus musculus with 18 samples.

Results

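The 9 genes described here serve butyrate uptake and fat oxidation in the colonocyte, the absorptive cell of the colon lining. They were chosen by symbol, as 9 of the 36757 genes in the deposited count table, and all 9 had counts in all 18 libraries. The transporters are Slc5a8, a sodium-coupled carrier that takes butyrate up from the lumen, and Slc16a1, a proton-coupled carrier of butyrate, lactate and ketone bodies. Cpt1a loads long-chain fatty acids onto carnitine for entry into mitochondria. Acadvl and Acads are the acyl-CoA dehydrogenases that open beta oxidation of very long and of short chains (Acads acts on butyryl-CoA), Hadha is a subunit of the trifunctional protein that carries out the middle steps, and Acaa2 is a thiolase that releases acetyl-CoA. Ppara is a nuclear receptor that binds fatty acids and switches on fat oxidation genes, and Pdk4 is a kinase that turns off pyruvate dehydrogenase and so spares glucose while fat is burned.

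Bacteria of the colon ferment fiber to butyrate, and mature colonocytes burn it as their main fuel. The carbon enters through the transporters, is oxidized in the mitochondrion to acetyl-CoA, and is in part released as ketone bodies. Cells at the crypt base and tumor cells lean more on glucose. Human SLC5A8 is known as a gene that colon tumors silence by methylation of CpG sites near its start.

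The series has 3 models, 2 genotypes and 3 libraries a group. All mice were C57BL/6, of both sexes and 6 to 8 weeks old at the start, and all received 2% dextran sodium sulfate (DSS), which injures the colon lining, in the drinking water for 7 days, then water for 14 days, in a cycle that was repeated 2 times. Chronic colitis tissue came from mice given DSS alone and taken 4 weeks after the last DSS. Tissue of colitis-associated cancer (CAC) came from mice that also had an injection of the carcinogen azoxymethane (AOM), 10 mg/kg, 4 days before DSS. Per the methods these mice were likewise taken 4 weeks after the last DSS. Organoids were grown in matrigel with EGF, N2 and B27 from CAC tumors, so every group carries the DSS exposure and no group is of untreated mice. The groups are labelled wild type (RNF138fl/fl in the methods) and RNF138-/-, and what drives the deletion is not given in the sources used here. The labels do not say whether the libraries of a group came from separate animals, and p-values then measure only the spread between these libraries.

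Total counts ran from 11514716 to 24390082 a library, with a median of 17332367. Rnf138 itself went against the labels. Its mean in CPM (counts scaled to a common library size by TMM over all 18 libraries) was 18.8 ± 0.76 in colitis libraries labelled RNF138-/- against 19.6 ± 4.95 in wild type, 43.6 ± 3.41 against 25.4 ± 3.43 in CAC, and 46.9 ± 3.81 against 48.9 ± 9.79 in organoids (SD, n = 3 each). In CAC it was higher in the libraries labelled RNF138-/- (log2 fold change 0.72, edgeR adjusted p = 0.0426). The counts cover whole genes and the deleted exons are not given here, so the genotype is used as a label throughout. Y-linked genes summed to 0 CPM in all 3 wild-type organoid libraries and to 242 to 281 CPM in those labelled RNF138-/-, and sex and genotype cannot be told apart in the organoids. Every tissue library held Y-linked counts, at 114 to 229 CPM in sum. A covariate of these counts in tissue therefore follows their level and does not split libraries with and without them. Wild-type CAC replicate 3 stood apart, with the highest level of each of the 9 genes in its group and a summed level of 15 mature colonocyte markers of 24468 CPM against 5741 and 4124 CPM in replicates 1 and 2. Fewer cells of a type and less RNA per cell cannot be told apart in these bulk samples.

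The 9 genes lie on 8 chromosomes of the mouse build mm10 (GENCODE M21). Slc5a8 spans chr10:88885992-88929515 on the plus strand and Slc16a1 chr3:104638668-104658462 on the plus strand. Pdk4 is at chr6:5483351-5496309 and Acads at chr5:115110299-115119346, both on the minus strand. Cpt1a (chr19:3322334-3385733, plus), Hadha (chr5:30118304-30155162, minus) and Ppara (chr15:85734983-85802819, plus) follow, and Acaa2 is placed where its values are given. Acadvl (chr11:70010183-70015411, minus) overlaps Dvl2 on the other strand, with which it shares 26.9% of its 50-base exon windows. Whether the counting used the strand is not stated, so Acadvl values are uncertain to that extent. For the other 8 genes at most 1.4% of windows were shared with another gene.

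The 250 bases before the RefSeq start (GRCm38.p6) of both butyrate transporters are shown because these were the genes that fell together in CAC. Capitals mark CpG sites, the Slc5a8 stretch is chr10:88885742-88885991 and the Slc16a1 stretch is chr3:104638414-104638663, both on the plus strand.
Slc5a8: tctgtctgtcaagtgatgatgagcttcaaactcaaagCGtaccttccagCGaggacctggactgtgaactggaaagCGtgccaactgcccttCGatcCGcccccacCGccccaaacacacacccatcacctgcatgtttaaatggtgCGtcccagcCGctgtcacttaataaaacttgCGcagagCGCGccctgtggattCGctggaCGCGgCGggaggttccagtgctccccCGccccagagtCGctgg
Slc16a1: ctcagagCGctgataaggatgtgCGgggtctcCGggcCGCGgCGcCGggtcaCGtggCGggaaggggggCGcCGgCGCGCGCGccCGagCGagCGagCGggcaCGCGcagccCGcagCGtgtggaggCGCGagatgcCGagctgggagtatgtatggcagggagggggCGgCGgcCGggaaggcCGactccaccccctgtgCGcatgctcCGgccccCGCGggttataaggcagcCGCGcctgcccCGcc
Slc5a8 has 17 CpG sites in this stretch and Slc16a1 has 37, against a median of 6 over 32851 RefSeq promoters. As many or more were present in 23.5% of promoters for Slc5a8 and in 2.2% for Slc16a1. The other searched members had from 6 (Pdk4) to 27 (Ppara) sites, and Acaa2 was not searched. No methylation was measured in this series.

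Motifs of nuclear receptors and of NF-kB were searched on both strands in windows from 250 bases before to 50 after the start of 8 members. The core motif AGGTCA, present in 16.3% of all promoters, was found in Cpt1a and Acadvl, printed here with the match in capitals because fat oxidation genes are classic targets of such receptors. The stretches are chr19:3323195-3323224 (plus strand of the gene, match on the opposite strand) and chr11:70015498-70015527 (minus strand of the gene, match on the same strand).
Cpt1a: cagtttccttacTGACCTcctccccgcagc
Acadvl: atggatcaccctAGGTCAggtagaatacag
The matches begin 94 and 87 bases before the start. The longer AGGTCANAG (the start of a direct repeat with 1 base between, which contains the core motif), CAAAGTNCA (HNF4 type), TATAAA and GGGACTTTC (start of an NF-kB site) were in 2.01%, 1.41%, 13.6% and 0.353% of promoters and in none of the 8 windows.

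Levels between genes were compared as RPKM, the CPM per kilobase of exon. In wild-type colitis Acaa2 (87.4 ± 7.7 RPKM), Acads (69.8 ± 6.64) and Slc16a1 (58.4 ± 16.2) were the most abundant, and Ppara (2.25 ± 0.167) and Pdk4 (1.84 ± 0.4) the least (SD, n = 3). Hadha (36.4 ± 3.56 RPKM), Acadvl (33.5 ± 1.43), Slc5a8 (31.2 ± 5.72) and Cpt1a (26.8 ± 6.62) lay between. In wild-type organoids Slc5a8 (0.261 ± 0.0742 RPKM) and Ppara (0.201 ± 0.151) were the lowest, while Slc16a1 (25.4 ± 4.81) was the highest and Pdk4 reached 15.5 ± 4.65. The plot of RPKM by group shows Slc5a8 leaving the band of the enzymes in CAC labelled RNF138-/- and in both organoid groups.

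**Figure D1:**
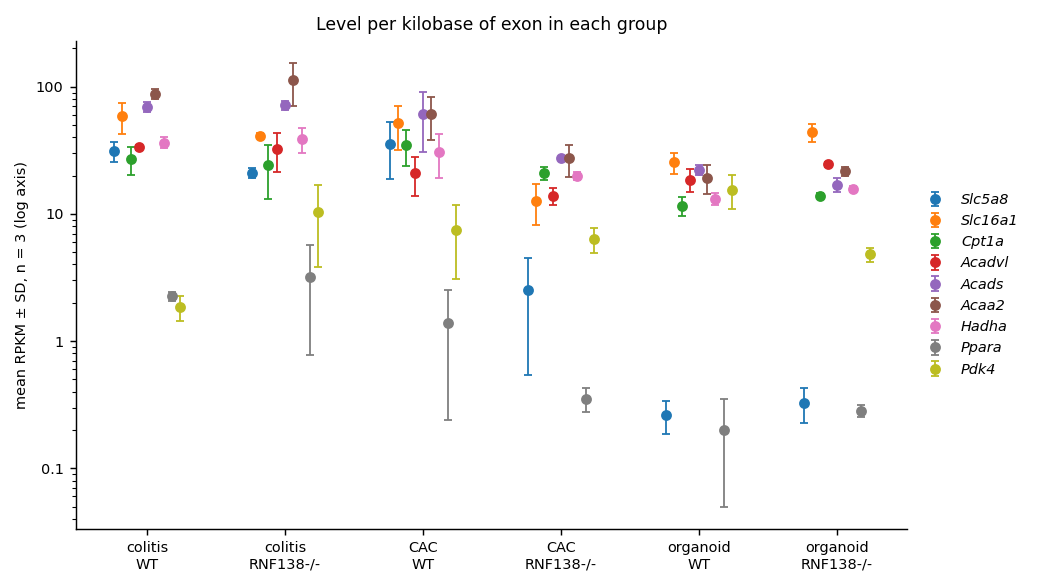
Mean RPKM with SD (n = 3, log axis) of each gene in the 6 groups. Slc5a8 lies at 31.2 in wild-type colitis, at 2.5 in CAC labelled RNF138-/- and at 0.261 and 0.328 in the organoids.

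The transporters differed in where they were lowest. Slc5a8 measured 156, 142 and 201 CPM in wild-type colitis (replicates 1 to 3), 124, 106 and 105 CPM in colitis labelled RNF138-/-, and 117, 163 and 291 CPM in wild-type CAC. It then measured 12.5, 3.28 and 24.2 CPM in CAC labelled RNF138-/-, and from 1.11 to 2.09 CPM in the organoids of both labels. The order of group means was thus wild-type CAC, wild-type colitis, colitis labelled RNF138-/-, CAC labelled RNF138-/- and the organoids, and only the first pair and the organoid pair overlapped as neighbors. Slc16a1 measured 238, 199 and 338 CPM in wild-type colitis and 188, 173 and 187 CPM in its RNF138-/- counterpart. In CAC the same gene measured 162, 194 and 325 CPM in wild type and 74.8, 34.7 and 59.3 CPM in libraries labelled RNF138-/-, and in organoids 134, 90.9 and 112 CPM against 190, 229 and 164 CPM. CAC labelled RNF138-/- held the lowest Slc16a1 of all groups and overlapped no neighbor, unlike Slc5a8, which was lowest in the organoids. Measured per length, the ratio of Slc5a8 to Slc16a1 had a median of 0.542 in wild-type colitis, 0.509 in colitis labelled RNF138-/-, 0.696 in wild-type CAC, 0.139 in CAC labelled RNF138-/-, and 0.0102 and 0.00889 in the organoids.

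By group means Acads, Acaa2, Hadha and Cpt1a were lower in CAC labelled RNF138-/- than in colitis and lowest in organoids, while Acadvl was lowest in CAC labelled RNF138-/-. Acads measured 176, 152 and 148 CPM in wild-type colitis and 178, 160 and 150 CPM in colitis labelled RNF138-/-, which overlap. In CAC Acads stood at 92.9, 104 and 217 CPM in wild type and at 62, 64 and 62.1 CPM in the libraries labelled RNF138-/-, and organoids stood at 45.5, 51.4 and 54.1 CPM against 42.8, 33.1 and 39.8 CPM. Its CAC and organoid groups did not overlap between labels. Acaa2 (chr18:74779197-74806208, plus strand) ran from 120 to 144 CPM in wild-type colitis, 116 to 240 CPM in its RNF138-/- counterpart, 67.8 to 131 CPM in wild-type CAC and 30.3 to 53.6 CPM in CAC labelled RNF138-/-. Hadha ran over the same groups from 282 to 336, 274 to 421, 206 to 383 and 162 to 187 CPM. For both genes the CAC groups were apart and the colitis groups overlapped, and organoids lay at 21.6 to 36.8 CPM for Acaa2 and at 102 to 144 CPM for Hadha, both labels together. Cpt1a, the carnitine gatekeeper, was more even in tissue, with means of 205 ± 50.6, 185 ± 84.2, 266 ± 83.2 and 159 ± 18.6 CPM in those 4 groups (SD, n = 3) and of 88.1 ± 14.9 and 106 ± 4.67 CPM in organoids. Acadvl had means of 89.9 ± 3.85 and 86.7 ± 28.9 CPM in colitis, 56 ± 19 and 37.2 ± 5.44 CPM in CAC and 50.1 ± 10.2 and 65.8 ± 3.24 CPM in organoids (wild type first). Its organoid groups were apart, with those labelled RNF138-/- higher.

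Ppara and Pdk4 went different ways. Ppara was scarce, at 9.38, 8.31 and 8.24 CPM in wild-type colitis, 2.27, 13.9 and 20.7 CPM in colitis labelled RNF138-/-, and 2.58, 3.01 and 10.4 CPM in wild-type CAC. It fell within 1.12 to 1.68 CPM in CAC labelled RNF138-/- and within 0.404 to 1.44 CPM in the organoids, where 1 library held as few as 7 counts. Pdk4 was lowest in wild-type colitis, at 6.54, 5 and 7.8 CPM, a group that overlapped no other. The colitis libraries labelled RNF138-/- held 20.3, 26.6 and 63.1 CPM, wild-type CAC held 20.2, 14.8 and 43.6 CPM and CAC labelled RNF138-/- held 17.5, 21.8 and 27.2 CPM of Pdk4. Wild-type organoids held 50.6, 72.1 and 40.1 CPM against 16.6, 14.9 and 19 CPM in those labelled RNF138-/-, so the labels were apart in colitis and in organoids, in opposite directions, and overlapped in CAC.

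**Figure D2:**
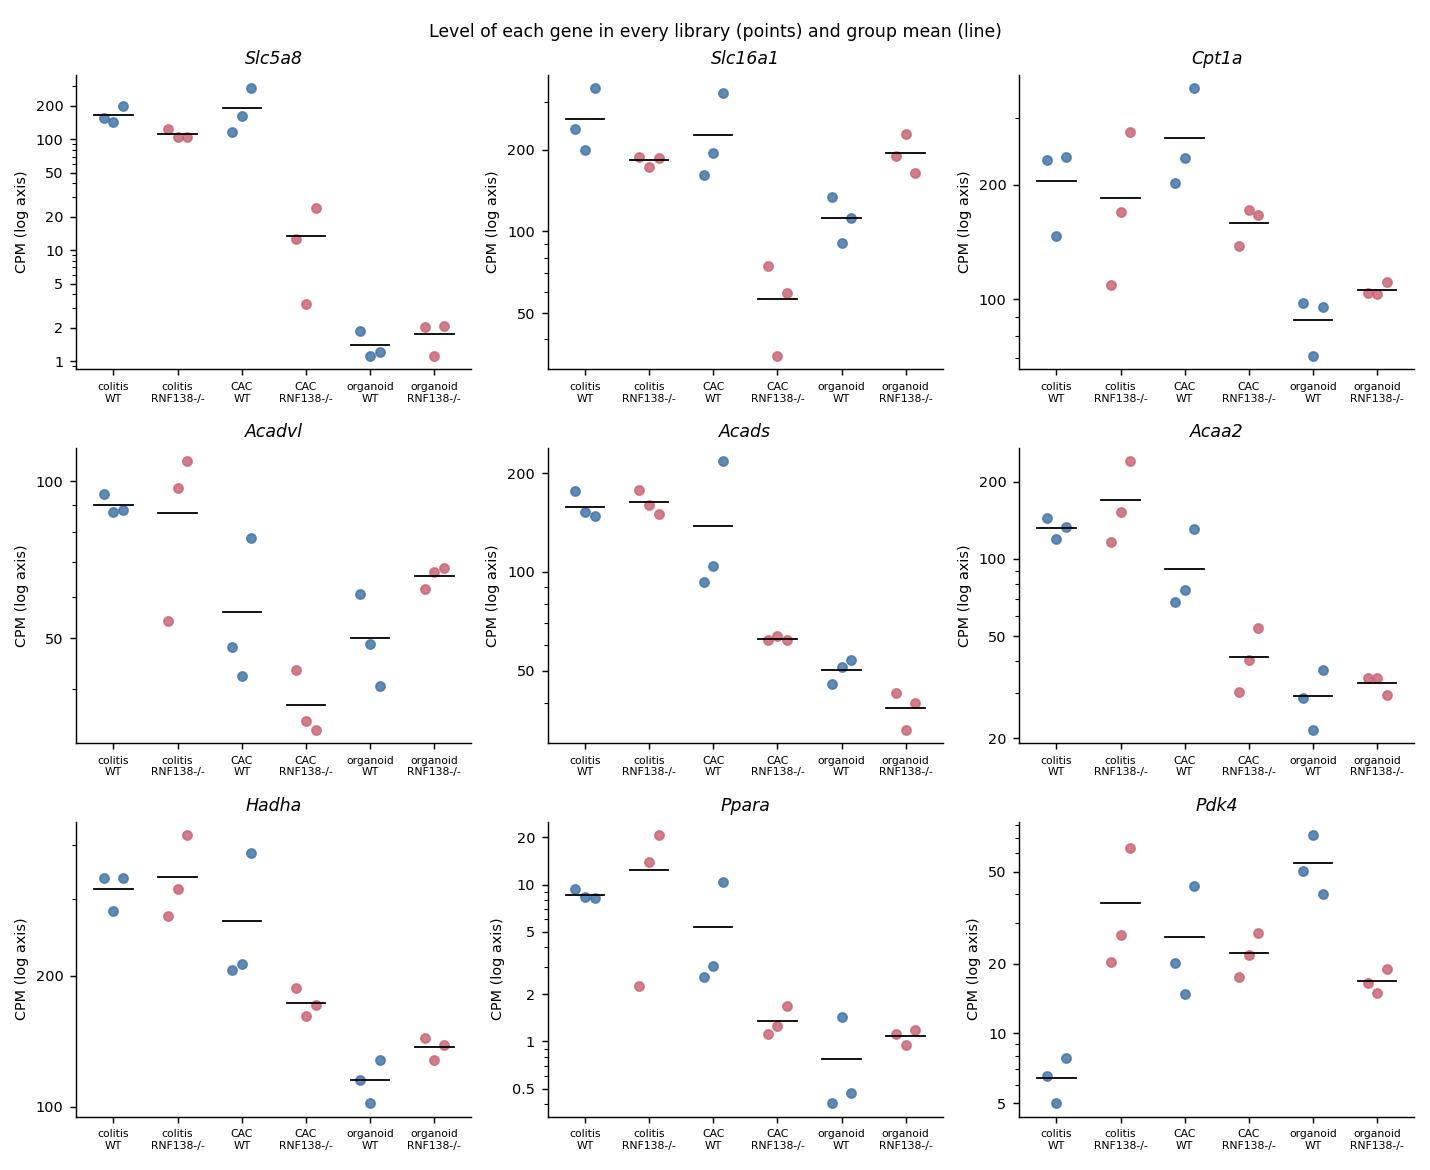
CPM (log axis) of each gene in each of the 18 libraries, with replicates 1 to 3 as points from left to right and the group mean as a line (blue wild type, red labelled RNF138-/-). Slc5a8 drops from 117 to 291 CPM in wild-type CAC to 3.28 to 24.2 CPM in CAC labelled RNF138-/-, and Pdk4 is lowest in wild-type colitis, at 5 to 7.8 CPM.

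The genotypes were first compared in chronic colitis, to ask what the label changes in inflamed tissue without a carcinogen. None of the 9 genes passed an adjusted p of 0.05 in edgeR's quasi-likelihood test, where 0.018% of 16623 genes were higher and 0.0722% lower. Before adjustment, p was under 0.05 for Pdk4, which was higher, and for Slc5a8, which was lower (2 of 9), where 6.08% of all genes were higher and 4.33% lower. DESeq2, which called 1.43% of all genes higher and 1.19% lower, called 1 higher (Pdk4). Pdk4 had a log2 fold change of 2.51 (SE 0.45, adjusted p = 0.129), a 5.7-fold higher level, with all 3 libraries above all wild-type ones. Pdk4 passed with the replicate block (log2 fold change 2.36, edgeR adjusted p = 0.0299). That block takes same-numbered colitis libraries as pairs, which was inferred from these same data (r = 0.347, 0.206 and 0.675) and is not given by a label. Without wild-type replicate 1, 2 or 3 the adjusted p was between 0.356 and 0.561, and without replicate 1, 2 or 3 of the group labelled RNF138-/- it was 0.0457, 0.186 or 0.0216. The log2 fold change was 1.85 without that replicate 3. Slc5a8 (log2 fold change -0.57, SE 0.19, adjusted p = 0.347) and Slc16a1 (-0.50, SE 0.22, adjusted p = 0.488) had all 3 libraries labelled RNF138-/- under the wild-type ones. The mature colonocyte markers summed to 8052 to 11184 CPM in wild type and to 11282 to 13853 CPM in libraries labelled RNF138-/-, and per 100 CPM of them Slc5a8 gave 1.56, 1.77 and 1.79 CPM against 0.898, 0.825 and 0.935 CPM, which are apart. The other 6 had log2 fold changes from -0.15 (Cpt1a) to 0.52 (Ppara), with adjusted p from 0.724 to 0.971, and the 95% intervals of Acads (-0.35 to 0.42) and Hadha (-0.41 to 0.59) were the narrowest of these. Markers of adipocytes, which are rich in Pdk4, summed to 44 to 59.6 CPM in wild type and to 75.5, 76.1 and 281 CPM in replicates 1 to 3 labelled RNF138-/-, and the last of these libraries also had the most Pdk4, Cpt1a, Acadvl, Acaa2, Hadha and Ppara of the 6. Skeletal muscle markers (14.6 to 18.9 against 19.8 to 67.7 CPM in sum) and endothelial markers (177 to 226 against 229 to 250 CPM) were also apart between the labels. Of the 12 adipocyte markers 1, Ucp1, was at 0 in both groups, and the part of all these cells in the Pdk4 difference was not tested.

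The same comparison in CAC asked whether the labels differ once tumors form. Both butyrate transporters fell in the libraries labelled RNF138-/-, with log2 fold changes of -3.90 for Slc5a8 (14.9-fold, SE 0.76, edgeR adjusted p = 0.0406) and -2.07 for Slc16a1 (4.2-fold, SE 0.38, adjusted p = 0.0378). These 2 of 9 genes stand beside 5.33% of 17752 genes lower and 1.05% higher. All 9 log2 fold changes were under 0, with a median of -1.20 against 0.01 over all genes tested. The 7 that did not pass were Ppara (-2.02, adjusted p = 0.0808), Acads (-1.20, 0.0725), Acaa2 (-1.20, 0.067), Cpt1a (-0.80, 0.0884), Hadha (-0.68, 0.139), Acadvl (-0.65, 0.141) and Pdk4 (-0.30, 0.637), each as log2 fold change and edgeR adjusted p. DESeq2 called 6 of the 9 lower (all but Acadvl, Hadha and Pdk4), and so did the fit of all 18 libraries (all but Cpt1a, Acadvl and Pdk4), where those fits called 14.5% and 14.2% of all genes lower, while with a covariate of Y-linked counts edgeR called 0 of the 9 and 0 of all 17752 genes (842 higher and 1686 lower before adjustment), at log2 fold changes of -5.79 for Slc5a8 (adjusted p = 0.177) and -2.40 for Slc16a1 (0.288). The 2 calls were lost (adjusted p from 0.0518 to 0.141) on leaving out wild-type replicate 1 or 2 or any 1 of the libraries labelled RNF138-/-. Without replicate 1 or 2 of that label edgeR called 0 of all genes (before adjustment 1922 and 1428 higher and 3126 and 2472 lower), which also ends the counts of markers and pathway genes given for CAC. The 2 calls held without wild-type replicate 3, when Acads also passed (-0.68, adjusted p = 0.0241), at -3.43 for Slc5a8 (adjusted p = 0.0397) and -1.70 for Slc16a1 (adjusted p = 0.0301). Without that library Ppara stood at -1.08, Acaa2 at -0.83, Cpt1a at -0.49, Acadvl at -0.31, Hadha at -0.30 and Pdk4 at 0.32, with adjusted p from 0.082 to 0.418. With the summed epithelial markers as the scale, which moved the median of all genes to 0.714, Slc5a8 fell by 3.13 (adjusted p = 0.0244), Slc16a1 stood at -1.32 (adjusted p = 0.052), and Acadvl, Hadha and Pdk4 turned to 0.15, 0.11 and 0.59.

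Markers of several cell types moved with the CAC labels. The summed level of the 15 mature colonocyte markers was 4124 to 24468 CPM in wild type and 279 to 756 CPM in libraries labelled RNF138-/-, with 5 of 15 past the threshold, all lower. That of the 10 pan-epithelial markers was 10770 to 19887 CPM against 8264 to 10164 CPM, with a median log2 fold change of -0.68. All 10 smooth muscle markers fell (2991 to 9899 CPM against 178 to 343 CPM in sum), as did 6 of 7 goblet cell markers and 7 of 8 tested adipocyte markers (114 to 236 against 24.2 to 24.5 CPM, with Adipoq and Lep at 0 in the latter group). The summed stem and cycling markers were 418 to 708 CPM against 1439 to 1575 CPM, with a median log2 fold change of 1.32. Leukocyte markers summed to 1822 to 2823 CPM against 761 to 1228 CPM, with 3 of 11 past the threshold, all lower, and skeletal muscle markers to 11.4 to 34.3 against 5.79 to 7.24 CPM. The part of these cells in the fall of the transporters was not tested. Per 100 CPM of the mature colonocyte markers, Slc5a8 gave 2.04, 3.95 and 1.19 CPM in wild-type CAC and 1.66, 1.18 and 3.23 CPM in CAC labelled RNF138-/-, which overlap. Slc16a1 on that scale gave 2.82, 4.71 and 1.33 CPM against 9.89, 12.4 and 7.93 CPM, and the groups were apart with the libraries labelled RNF138-/- the higher. So were those of every other member but Slc5a8, as with Hadha at 3.58, 5.17 and 1.57 CPM against 24.7, 58.1 and 22.9 CPM. This does not set Slc16a1 apart, since the marker sum itself was far lower with that label. In organoids Slc5a8 gave only 0.0519 to 0.113 CPM per 100 CPM of these markers, under every tissue library.

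**Figure D3:**
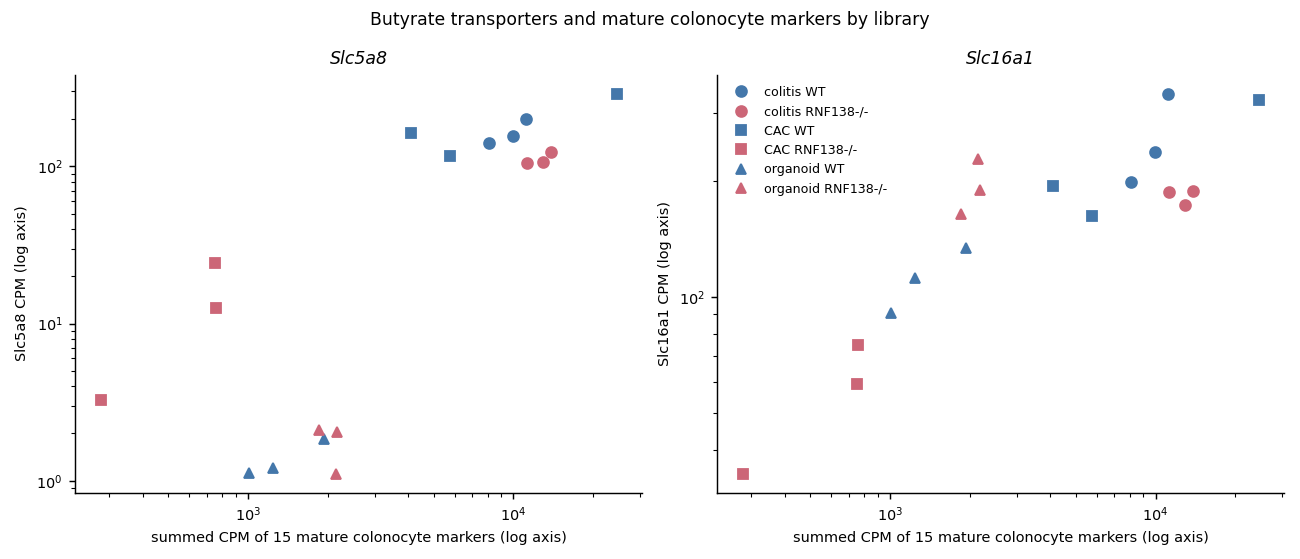
CPM of Slc5a8 (left) and Slc16a1 (right) in the 18 libraries against the summed CPM of 15 mature colonocyte markers, both axes on a log scale (circles colitis, squares CAC, triangles organoids; blue wild type, red labelled RNF138-/-). The organoids hold 1007 to 2171 CPM of the markers, above the 279 to 756 CPM of CAC labelled RNF138-/-, yet only 1.11 to 2.09 CPM of Slc5a8.

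Organoids were compared to ask whether the labels differ in tumor cells in culture. Slc16a1 rose 1.69-fold (log2 fold change 0.76, SE 0.17, edgeR adjusted p = 0.0117) in the libraries labelled RNF138-/-, the opposite of CAC tissue. Pdk4 fell by 1.73 (SE 0.23, adjusted p = 0.00212, 3.32-fold) and Acads fell by 0.42 (SE 0.14, adjusted p = 0.0408, 1.34-fold). This is 1 of 9 genes higher and 2 lower, where 17.9% of 15294 genes were higher and 17.7% lower, so the share called is near that of all genes. Slc5a8, at 14 to 32 counts a library, had a log2 fold change of 0.26 (95% interval -0.59 to 1.11, adjusted p = 0.612), and differences within that interval are not excluded. The others were Ppara (0.50, adjusted p = 0.474), Acadvl (0.36, 0.0963), Cpt1a (0.23, 0.197), Hadha (0.22, 0.16) and Acaa2 (0.13, 0.598), as log2 fold change and edgeR adjusted p. Pdk4 and Slc16a1 kept their calls whichever 1 library was left out (Slc16a1 had adjusted p = 0.071 in the fit of all 18), while Acads lost its call without 5 of the 6, at adjusted p from 0.0628 to 0.155. Scaled on the summed epithelial markers, which moved the median of all genes to 0.546, Acads turned to 0.13, Slc16a1 stood at 1.37 and Pdk4 at -1.17, and 5 genes were higher and 1 lower, where 41.6% of all genes were higher and 3.83% lower. Fibroblast markers were above the 993 to 1908 CPM of tissue and differed by label, summing to 9199 to 23496 CPM in wild type and to 41047 to 50660 CPM in those labelled RNF138-/-, with 7 of 8 higher. Smooth muscle markers were also higher with that label (379 to 1654 against 2089 to 2292 CPM in sum), as were endothelial (20.4 to 39.3 against 55.9 to 72 CPM) and leukocyte markers (24 to 35.1 against 99 to 149 CPM), while pan-epithelial markers (11014 to 12052 against 6374 to 9408 CPM) and stem and cycling markers (912 to 1426 against 491 to 640 CPM) were lower, none of them overlapping. The part of these cells, and that of sex, in these 3 differences was not tested. Lpl, which shares 46 of 3506 exon windows with Pdk4, went the other way (227 ± 37.7 against 772 ± 103 CPM, SD, n = 3).

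**Figure D4:**
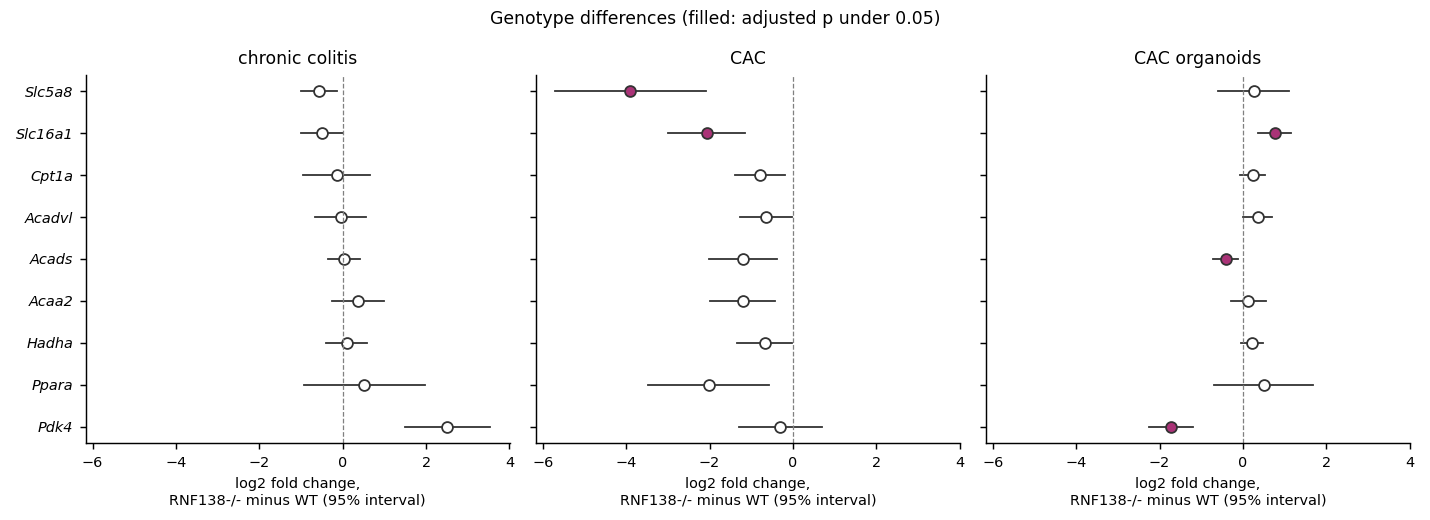
Log2 fold change of each gene, RNF138-/- label minus wild type, with its 95% interval in colitis, CAC and organoids (filled points have an edgeR adjusted p under 0.05). Only Slc5a8 and Slc16a1 are filled in CAC, at -3.90 and -2.07, and Slc16a1, Acads and Pdk4 in organoids, at 0.76, -0.42 and -1.73.

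Because the contrasts between models use the same libraries as those within models, their values are given side by side and share controls. The genotype difference in CAC minus that in colitis, from 1 fit of all 18 libraries, was negative for 5 of the 9 genes at an edgeR adjusted p under 0.05, where 9.88% of 19390 genes were negative and 4.21% positive. The genes were Slc5a8 (-3.27, adjusted p = 0.00616), Pdk4 (-2.74, 0.00806), Slc16a1 (-1.51, 0.0232), Acaa2 (-1.50, 0.024) and Acads (-1.17, 0.0286), on the log2 scale. Slc5a8 and Pdk4 kept this call in every alternative fit run. Slc16a1 and Acaa2 lost the call without wild-type CAC replicate 3 (adjusted p = 0.0672 and 0.0694), without wild-type colitis replicate 2 (0.0542 and 0.051) or without CAC replicate 2 labelled RNF138-/- (0.0551 and 0.0552), Acaa2 also without CAC replicate 1 labelled RNF138-/- (0.0576) and Slc16a1 without wild-type colitis replicate 1 (0.0536). Acads lost it without any 1 of the 3 CAC libraries labelled RNF138-/-, without wild-type colitis replicate 2 or 3 or without colitis replicate 1 labelled RNF138-/-, at adjusted p from 0.0518 to 0.0615. On the scale of epithelial markers all 3 lost it, at -0.78 for Slc16a1 (adjusted p = 0.194), -0.78 for Acaa2 (0.223) and -0.38 for Acads (0.371), and so they did with only the groups in the contrast (0.0565, 0.0564 and 0.0739). Without a scaling factor Acaa2 (-1.24, 0.0532) and Acads (-0.87, 0.0535) lost it. The genotype difference in organoids minus that in CAC was positive for 4 of 9 (13.1% of all genes positive, 10.2% negative), namely Slc5a8 (4.12, adjusted p = 0.00201), Slc16a1 (2.81, 0.000371), Acaa2 (1.31, 0.0303) and Hadha (0.88, 0.0482). Among the leave-one-out fits Hadha kept the call only without wild-type CAC replicate 1 or 2 (adjusted p up to 0.129 without another library), and Acaa2 lost it without wild-type CAC replicate 3, CAC replicate 1 or 2 labelled RNF138-/-, wild-type organoid replicate 2 or organoid replicate 1 or 2 labelled RNF138-/- (0.0583 to 0.0847). Both also lost it without a scaling factor (Hadha 0.38, adjusted p = 0.331, and Acaa2 0.80, 0.142) and on the scale of epithelial markers (0.68, 0.226, and 1.12, 0.126), and Hadha with no filter on low counts (0.0584).

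Models were then compared within a label. In wild type, CAC differed from colitis in 1 of 9 genes, Pdk4, which was higher by 2.02 (SE 0.43, edgeR adjusted p = 0.00383, 4.06-fold), while 12.3% of 19390 genes were higher and 7.55% lower. Without wild-type CAC replicate 3, 5 of 9 were called, with Acaa2, Acads, Acadvl and Hadha lower and Pdk4 higher (1.44, adjusted p = 0.0151), where 13.5% of all genes were higher and 8.39% lower. Adipocyte markers summed to 44 to 59.6 CPM in wild-type colitis and to 114 to 236 CPM in wild-type CAC, which are apart, as are those of enteric neurons and glia (55.1 to 66.5 against 44.5 to 54.2 CPM), of squamous epithelium (1.61 to 2.29 against 4.07 to 43.3 CPM) and Y-linked genes (128 to 176 against 188 to 229 CPM). The part of these in the Pdk4 difference was not tested. In the libraries labelled RNF138-/-, CAC was lower than colitis in 7 of 9 (26.7% of genes lower, 27.9% higher). The log2 fold changes were -3.18 for Ppara, -3.07 for Slc5a8, -2.03 for Acaa2, -1.70 for Slc16a1, -1.37 for Acads, -1.22 for Acadvl and -0.96 for Hadha, with edgeR adjusted p from 5.29e-05 to 0.00164. Cpt1a and Pdk4 did not pass. On the scale of epithelial markers the calls of Hadha (-0.24, adjusted p = 0.421) and Acadvl (-0.51, 0.119) were lost. Adipocyte markers were 75.5 to 281 CPM in colitis and 24.2 to 24.5 CPM in CAC with this label, mature colonocyte markers 11282 to 13853 against 279 to 756 CPM and smooth muscle markers 6320 to 17110 against 178 to 343 CPM, with goblet, pan-epithelial, leukocyte, skeletal muscle, squamous, neural and stem cell markers apart as well, and their part in these falls was not tested.

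Organoids of wild type were lower than wild-type CAC in 7 of 9 genes and higher in 1 (33.7% of 19390 genes lower, 27% higher). Slc5a8 fell 134-fold (log2 fold change -7.07, SE 0.63, edgeR adjusted p = 2.95e-07), and the log2 fold changes of the others were -2.80 for Ppara, -1.65 for Acaa2, -1.59 for Cpt1a, -1.45 for Acads, -1.22 for Hadha and -1.02 for Slc16a1. Pdk4 was higher by 1.06 (SE 0.41, adjusted p = 0.034), although its libraries overlapped. This call of Pdk4 was lost without wild-type CAC replicate 1 or 2 (adjusted p = 0.12 and 0.149), without wild-type organoid replicate 1 or 2 (0.0532 and 0.137) and with only the groups in the contrast (0.078). That of Slc16a1 was lost without wild-type CAC replicate 3 (-0.67, adjusted p = 0.0501) and on the scale of epithelial markers (-0.63, 0.0928). Without wild-type CAC replicate 3 Ppara stood at -1.90 and kept its call (edgeR adjusted p = 0.0242). In libraries labelled RNF138-/-, Slc5a8 (-2.95, adjusted p = 0.000273) and Acads (-0.70, 0.0174) were lower in organoids, and Slc16a1 (1.79, 9.32e-05) and Acadvl (0.82, 0.00928) higher, beside 34.2% of genes lower and 25.7% higher. Acadvl lost its call without a scaling factor (0.21, adjusted p = 0.439), and Acads on the scale of epithelial markers (-0.52, 0.0571) or without organoid replicate 2 labelled RNF138-/- (-0.60, 0.0752). Slc5a8 kept its call on leave-one-out, at -3.43 without CAC replicate 2 and -2.20 without CAC replicate 3 of that label. Dvl2, which overlaps Acadvl, was also higher in these organoids, by 1.76 (SE 0.24). The mix of cells differed as well, with summed fibroblast markers of 993 to 1908 CPM in CAC and 9199 to 50660 CPM in organoids, both labels together, and culture and cell mix cannot be told apart in this comparison. In wild type sex is a further difference, since Y-linked genes summed to 188 to 229 CPM in the CAC libraries and to 0 CPM in the organoids, and it cannot be told apart from the model there.

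The wider pathway was followed in 10 lists with 134 genes in all, members included. In colitis 0 of the 123 tested genes passed in edgeR. Before adjustment p was under 0.05 for 8 that were higher and 5 that were lower (6.08% and 4.33% of all genes), and DESeq2 called 4 higher and 1 lower (1.43% and 1.19%). In CAC 10 of 123 were lower and 0 higher, beside 5.33% and 1.05% of all genes (before adjustment 7 higher and 57 lower genes had p under 0.05, beside 14.1% and 19.7% of all genes, and DESeq2 called 5 higher and 44 lower, beside 8.2% and 14.5%), and the median log2 fold change was -0.63 against 0.01 over all genes. On the scale of epithelial markers 4 were lower and 1 higher (2.55% and 1.4% of all genes) and the median turned to 0.18, against a shift of all genes to 0.714, and with the Y-linked covariate edgeR called none of these or of all genes. Without CAC replicate 1 or 2 labelled RNF138-/- it again called 0 of the lists and 0 of all genes, without replicate 3 of that label 1 was lower (0.572% of all genes), and without wild-type replicate 1, 2 or 3 the lists had 3, 4 and 19 lower (1.52%, 3.23% and 6.67% of all genes). The transport list had 4 of 15 lower, among them Slc16a5, a further monocarboxylate carrier (2.91 against 58.6 CPM, log2 fold change -4.39, edgeR adjusted p = 0.0272), and Fabp2, a fatty acid binding protein. The list of mitochondrial beta oxidation had 2 of 19 lower, Acad11 (-1.33, adjusted p = 0.0294) and Hadh (-1.17, 0.0486), the latter a dehydrogenase of short chains like those of butyrate. Acss2, which activates acetate, was lower (-0.92, 0.0359), as were Bdh1, which interconverts the ketone bodies (-1.18, 0.0493), Ffar2, a receptor for short-chain fatty acids that leukocytes also carry (-3.43, 0.0215), and Txnip (-0.98, 0.0487). The lists of carnitine shuttle, peroxisomal oxidation and PPAR regulators had medians of -0.68, -0.68 and -0.74 with no gene past the threshold in edgeR, and that of pyruvate dehydrogenase -0.15. Members of these lists share the cell type differences given for CAC tissue, and the part of those was not tested here either.

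In organoids the lists split both ways, with 20 of 118 genes higher and 23 lower and a median of 0.07 against -0.04 over all genes. These shares are near the 17.9% and 17.7% of all genes that were higher and lower, so the counts per list describe single genes and set no list apart. The split depended on the scale, with 8 higher and 35 lower without a scaling factor (12.5% and 29.4% of all genes) and 61 higher and 4 lower on that of epithelial markers (41.6% and 3.83% of all genes). Leaving out 1 library gave 8 to 24 higher and 7 to 28 lower (9.55% to 22.8% and 7.66% to 21.2% of all genes), with the fewest without replicate 3 labelled RNF138-/-. The scale of epithelial markers also turned Acsl3, Acot13, Eci1, Hsd17b4, Sirt1 and Hdac1 to positive values. Pyruvate dehydrogenase and its kinases had 2 of 15 higher, the kinase Pdk3 (0.66, edgeR adjusted p = 0.00998) and the catalytic subunit Pdha1 (0.37, 0.0478), and 5 lower, led by the phosphatase Pdp1 (-1.17, 0.00167) and Pdk4. Mitochondrial beta oxidation had 5 of 19 lower, Etfb (-1.71, 0.013) and Eci1 (-0.51, 0.0153) first, and 1 higher, Acadsb (0.84, 0.00482). Ketone body genes had 3 of 8 higher, with Oxct1, which uses ketone bodies (0.73, 0.0087), and Aacs (0.48, 0.0241) first, and 2 lower. PPAR regulators had 5 of 18 higher, among them Rxra, the partner receptor of PPARs (0.68, 0.00762), and 2 lower, the coactivator Ppargc1a (-0.99, 0.00274) and Sirt1 (-0.43, 0.0219). In the transport list Slc16a6 (-1.03, 0.00332) and the fatty acid carrier Slc27a2 (-2.50, 0.00633) were the first of 3 lower. The acyl-CoA list had 3 of 14 higher (Acsf2 0.80, Acsl4 0.53 first) and 2 lower (Acsl3 -0.43, Acot13 -0.38), and the carnitine list had Crat (0.54) and Cpt1c (0.71) higher and Cpt2 (-0.60) lower of 8. Peroxisomal oxidation had 3 of 13 higher (Acox3 0.46 among them) and 2 lower (Scp2 -0.71, Hsd17b4 -0.38), PPAR alpha targets had Acot2 higher (0.40) and Pdk4 and Cpt2 lower of 21, and Hdac1 (-0.31) was the 1 of 4 butyrate sensing genes called.

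**Figure D5:**
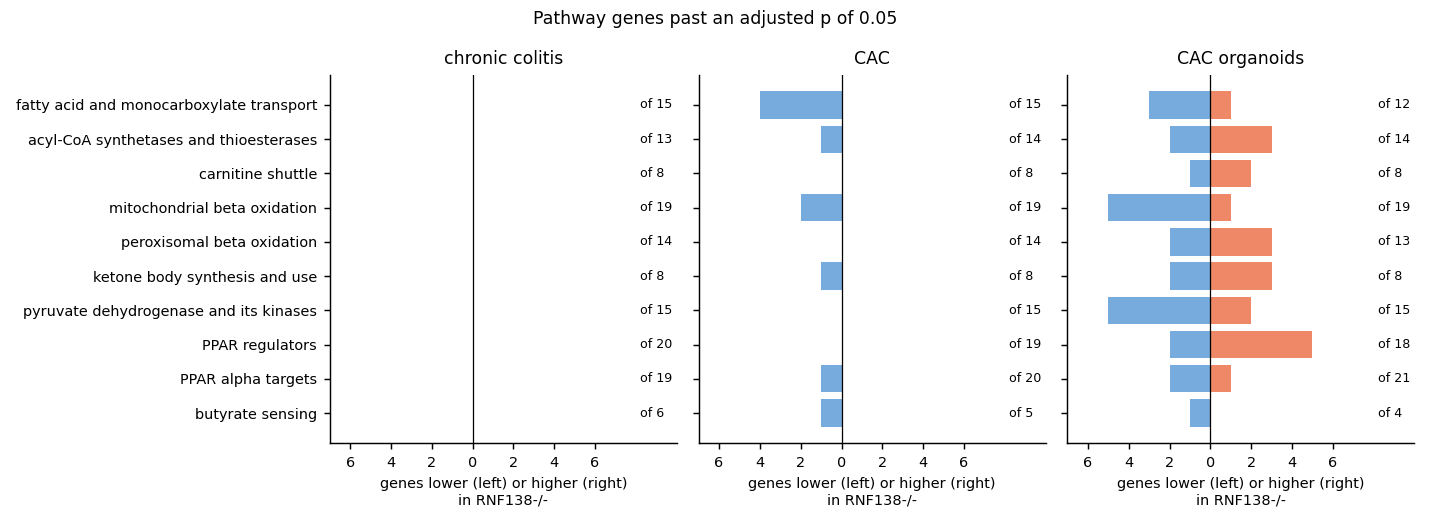
Number of genes of each pathway list lower (left bars) or higher (right bars) in libraries labelled RNF138-/- at an edgeR adjusted p under 0.05, with the number tested beside each bar. The colitis panel is empty, the CAC panel has only lower genes, 4 of the 10 in transport, and the organoid panel has both.

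Likeness was described by Pearson's r of log2 CPM over the 18 libraries, which share the 6 groups and so follow differences between models. Car4, Hao2 and Pck1 were most like Slc5a8 (0.99 each), and Prkce (0.94), Pmp22 (0.93) and Abcg2 (0.92) most like Slc16a1. Decr1 (0.97), Hadhb (0.95) and Acadm (0.94), all of mitochondrial fat oxidation, led for Ppara, and Tspan8 (0.98), Ehhadh (0.97) and Gcnt3 (0.97) for Hadha. For Acads the first were Cox7b, Prkcz and Tppp (0.98 each), for Acaa2 Sult1d1 (0.98), Bmp3 and Ces2a (0.97), for Cpt1a Insr, Atp11b (0.96) and Synj1 (0.95), and for Acadvl Adk (0.93), Pptc7 (0.91) and Ces1d (0.90). Pdk4 had no close match, with Eci2 (0.85), Gm8730 and Stard3nl (0.84) first. Among the members r was 0.96 for Acaa2 with Hadha and 0.93 for Slc5a8 with Acads, but 0.49 for Slc5a8 with Slc16a1. Pdk4 had a negative r with each of the other 8, from -0.36 (Slc5a8) to -0.19 (Cpt1a).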

How the data were processed

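Bulk RNA-seq counts of 18 mouse libraries were used. The authors deposited whole-number counts of reads per gene and, per the labels, the processing notes name mm10, STAR 2.6.1d, HTSeq 0.11.2 and DESeq2, while the methods name Cufflinks. The strand setting is not given in the sources used here, and a further deposited table, which holds fold changes (log2) with p-values for the authors' own comparisons, was not used. Members and lists were chosen with earlier results of these data known. Total counts per library are given in the report, and their number limits the precision.

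Genotypes were compared within each model (6 libraries) and models in 1 fit of 18, with edgeR 4.0.16 in R 4.3.3 (TMM, filterByExpr, glmQLFit, glmQLFTest) and Benjamini-Hochberg adjustment over all genes tested, at 0.05. Fold changes come from each fit, CPM from TMM over all 18 libraries, and RPKM from CPM and the GENCODE M21 exon length (36700 of 36757 genes matched). Log2 CPM used a prior count of 2, and likeness was sought among genes with a mean log2 CPM of at least 3. Named genes were the 9 members, in each list and genotype comparison the 2 with the smallest adjusted p in each direction among those past 0.05, the 3 most alike, and Rnf138. Some genes that this rule names are not reported here. Fabp2, Dvl2 and Lpl were added after their values were seen. Alternatives were RLE, no scaling factor, an epithelial marker offset, no filter, DESeq2 1.42.0, a replicate block, other sets of libraries, a Y-linked covariate, the study's fold of 2 and leave-one-out.

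Same-numbered libraries of the 2 labels deviated together in colitis (r = 0.347, 0.206 and 0.675), so the numbers were taken as pairs there, from the data and not from a label. In CAC r was 0.0282, 0.309 and 0.1, and the numbers were not taken as pairs, although 0.309 is above the 0.206 of colitis. No 2 replicates agreed within sampling noise (chi-square per degree of freedom 8.05 to 161). On simulated counts with 4-fold changes edgeR recovered 72% of 100 genes in colitis (16345 genes), 55.1% of 98 in CAC (17419) and 88.5% of 96 in organoids (15027). With 2-fold changes it recovered 8%, 6.06% and 62.6%, and false calls were 8, 3 and 14. Few genes were changed in the simulation, while edgeR called 186 higher and 946 lower in CAC and 2734 and 2702 in organoids. The adjustment therefore differs, and these rates need not carry over to the data.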

Additional observations from a re-analysis of the deposited data

Results flagged for a closer look

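Each result here was raised because a test of the difference between 2 models found that the label's effect was not the same in both. Between CAC and colitis the log2 difference was -3.27 for Slc5a8, -1.51 for Slc16a1, -1.17 for Acads, -1.50 for Acaa2 and -2.74 for Pdk4. For Pdk4 this combines a level that was higher with the RNF138-/- label in colitis with groups that overlapped in CAC. For the other 4 the log2 fold change in CAC was under 0, but Acads and Acaa2 did not pass there (edgeR adjusted p = 0.0725 and 0.067). For Acaa2 the difference also holds a value of 0.36 in colitis, which did not pass either. Between organoids and CAC it was 4.12 for Slc5a8, 2.81 for Slc16a1, 1.31 for Acaa2 and 0.88 for Hadha, and of these Slc16a1 alone was past the threshold in both models, in opposite directions. All 9 differences use the CAC libraries, so the 2 sets are not independent of each other. Mature colonocyte, smooth muscle and adipocyte markers differed by label in the same CAC libraries. In the organoids the labels differed in fibroblast markers (9199 to 23496 CPM in wild type against 41047 to 50660 CPM in sum) and in sex, with Y-linked genes at 0 against 242 to 281 CPM. In colitis adipocyte markers were 44 to 59.6 against 75.5 to 281 CPM. The part of these markers was not tested, and sex and genotype cannot be told apart in the organoids.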

How the results depend on the processing

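Settings that moved a count of called members by over 1.5 times are given here, and the cause was not tested. Shares of all genes are given as higher and then lower, and not for the fold of 2. In colitis (0 called) 1 gene, Pdk4, passed with no filter, DESeq2, the replicate block, all 18 libraries in 1 fit or the Y-linked covariate, and leave-one-out gave 0 to 1. These fits called at most 1.43% and 1.19% of all genes. In CAC (2 called) the count was 1 with the epithelial offset (1.4% and 2.55% of all genes), 6 with DESeq2 (8.2% and 14.5%) and 6 with all 18 libraries (9.27% and 14.2%). It was 0 with the Y-linked covariate (0% and 0%) and 0 to 3 on leave-one-out (0% to 2.21% and 0% to 6.67%). In organoids (3 called) it was 1 with a fold of at least 2, 6 with the epithelial offset (41.6% and 3.83% of all genes) and 1 with all 18 libraries (9.85% and 6.96%). For CAC against colitis in wild type (1 called) it was 2 with no filter (6.49% and 3.94% of all genes) and 1 to 5 on leave-one-out (6.93% to 13.5% and 3.8% to 8.79%). For organoids against CAC labelled RNF138-/- (4 called) it was 2 with a fold of at least 2 and 7 with no scaling factor, where 14.7% and 54.1% of all genes were called. For the difference of CAC and colitis effects (5 called) it was 3 with no scaling factor (6.15% and 7.79% of all genes) and 2 with the epithelial offset (8.46% and 4.59%). It was 2 with only the groups in the contrast (1.36% and 7.3%) and 2 to 6 on leave-one-out (1.24% to 5.17% and 6.14% to 12.2%). For the difference of organoid and CAC effects (4 called) it was 2 with the epithelial offset (8% and 4.27% of all genes). It was 7 with only the groups in the contrast (14.6% and 11.8%) and 2 to 6 on leave-one-out (9.59% to 13.6% and 6.06% to 10%).

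Signs turned only for members that were not called, except Acads in organoids (0.13 with the epithelial offset). In CAC these were Acadvl (0.15), Hadha (0.11) and Pdk4 (0.59) with the epithelial offset, and Pdk4 with no scaling factor (0.05) or on leave-one-out (-0.58 to 0.32, the latter without wild-type replicate 3), and in organoids Acaa2 with no scaling factor (-0.08) or on leave-one-out (-0.03 to 0.34, the former without wild-type replicate 2). In colitis leave-one-out gave -0.57 to 0.12 for Cpt1a, -0.26 to 0.20 for Acadvl, -0.03 to 0.11 for Acads, -0.12 to 0.22 for Hadha and -0.11 to 1.01 for Ppara. Of the other values of single members, 684 kept their side, 23 passed only in the alternative and 77 only in the fit as reported. With the replicate block, 38 genes were higher and 53 lower in colitis against 3 and 12. Outside colitis, where the numbers were not taken as pairs, that block called 3 members in CAC (1.1% of all genes higher and 5.77% lower). In organoids it called 2 (14.4% and 11.9%). The Y-linked covariate could not be fitted in organoids, whose wild-type libraries hold no Y-linked counts.

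In simulated data a 2-fold change was called for 8% of changed genes in colitis and 6.06% in CAC, so a member that missed the threshold there is not shown to be unchanged. Leave-one-out fits, in which 1 group keeps 2 libraries, take that group's spread to be like that of the rest.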
